A study of Mus musculus with 64 samples.

Results

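The inflammasome and IL-1 genes described here are *Nlrp3*, *Pycard*, *Casp1*, *Casp4*, *Casp12*, *Casp8*, *Gsdmd*, *Il1a*, *Il1b* and *Il18*. They were taken by symbol, although the list was chosen with earlier results of these data known. They are 10 of the 25239 genes in the batch-corrected table of counts, and all 10 were among the 13584 genes that passed the filter on low counts. The libraries come from microglia, the resident macrophages of the retina, of *Cx3cr1CreER:R26-tdTomato* +/- mice, in which tamoxifen switches on the red reporter in cells that use the fractalkine receptor promoter. Naive mice had no injection. The others were taken 12 days (D12) or 28 days (D28) after an intravitreal injection of AAV2 without a transgene. The dose was 1e+10 genome copies per eye, and per the study's methods the vector carried a sequence that inhibits TLR9, a sensor of viral DNA. Females and males were 3, 9 or 18 months old, which gives 18 groups of age, sex and day with 2 to 4 libraries each, each library being 600 sorted cells of 1 retina. All groups carried the same reporter and had the same tamoxifen, injected and naive alike. No RNA library comes from a vehicle-injected eye, so effects of the vector and of the injection cannot be told apart in these data. The study did inject other eyes with PBS, and reports by flow cytometry no change in microglial markers there. The 62 libraries used (19 naive, 22 D12 and 21 D28) held 1468478 to 9836173 counts. Replicates are separate retinas, and 3 libraries are treated with care: 9-month male D12 replicate 2 and 18-month female D12 replicates 1 and 2 had summed microglial markers of 29950 to 36520 CPM, where no other D12 library exceeded 21380. An 18-month male library titled D28 also carries a D12 label and was kept at D28. Results without these libraries are given with the markers of other cells.

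An inflammasome is a protein platform that a sensor such as NLRP3 builds with the adaptor ASC, the product of *Pycard*, to activate caspase-1. Caspase-1 then cuts the precursors of IL-1β and IL-18 into secreted cytokines, and cuts gasdermin D, which forms pores in the plasma membrane. Mouse caspase-11, encoded by *Casp4*, senses bacterial lipopolysaccharide in the cytosol and cuts gasdermin D directly; caspase-8 is a death-receptor protease that can also cut IL-1β and gasdermin D. IL-1α acts through the same receptor as IL-1β and needs no inflammasome. Transcript levels of these genes are not protein levels and say nothing of cleavage, and neither was measured in these libraries.

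*Casp1*, *Casp4* and *Casp12* lie in a row on the plus strand of mouse chromosome 9 (GRCm38, GENCODE vM21), and the annotation has no gene between them. *Casp1* (ENSMUSG00000025888.5) spans chr9:5298517-5307265, *Casp4* (ENSMUSG00000033538.13) chr9:5308828-5336783 and *Casp12* (ENSMUSG00000025887.10) chr9:5345430-5373032, with gaps of 1562 and 8646 bases. *Il18* (ENSMUSG00000039217.13, chr9:50554827-50581840) is elsewhere on the same chromosome. *Il1a* (ENSMUSG00000027399.1, chr2:129299610-129309972) and *Il1b* (ENSMUSG00000027398.13, chr2:129364570-129371139) are both on the minus strand of chromosome 2, 54597 bases apart. The others stand alone: *Nlrp3* (ENSMUSG00000032691.14, chr11:59541568-59566956), *Pycard* (ENSMUSG00000030793.4, chr7:127989708-127993867), *Casp8* (ENSMUSG00000026029.14, chr1:58795374-58847503) and *Gsdmd* (ENSMUSG00000022575.5, chr15:75862327-75867408). An exon of *Il1a* overlaps *Gm14023*, and one of *Il1b* overlaps *Il1bos*, both on the opposite strand and both counted in the table. The kit does not mark strand, so reads in those stretches cannot be told apart; *Il1bos* had at most 19 counts in any library and *Gm14023* had 12 to 239. *Pycard* overlaps *Gm45205* in the same way, which was not counted.

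The promoters of the 3 neighbouring caspase genes are shown because all 3 genes rose at both D12 and D28. They are RefSeq sequences of GRCm38.p6, each 250 bases before and 50 after an annotated start, and capitals mark the motif matches found in them. In the *Casp12* promoter (chr9:5345226-5345525) the capitals are the gamma-activated site TTCNNNGAA, and in that of *Casp4* (chr9:5308599-5308898) they are NF-kB matches. The *Casp1* promoter (chr9:5298267-5298566) holds none of the motifs searched.
Casp1: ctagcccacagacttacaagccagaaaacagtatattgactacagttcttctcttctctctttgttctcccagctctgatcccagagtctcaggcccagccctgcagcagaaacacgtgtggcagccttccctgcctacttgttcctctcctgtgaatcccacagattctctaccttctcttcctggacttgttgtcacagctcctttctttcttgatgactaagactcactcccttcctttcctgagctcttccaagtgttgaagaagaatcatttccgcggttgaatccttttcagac
Casp4: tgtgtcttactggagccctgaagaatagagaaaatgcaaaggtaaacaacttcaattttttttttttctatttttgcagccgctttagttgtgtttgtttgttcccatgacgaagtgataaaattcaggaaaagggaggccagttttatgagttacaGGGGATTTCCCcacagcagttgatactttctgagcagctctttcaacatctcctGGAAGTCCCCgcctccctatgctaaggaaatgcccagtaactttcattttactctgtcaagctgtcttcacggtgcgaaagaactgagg
Casp12: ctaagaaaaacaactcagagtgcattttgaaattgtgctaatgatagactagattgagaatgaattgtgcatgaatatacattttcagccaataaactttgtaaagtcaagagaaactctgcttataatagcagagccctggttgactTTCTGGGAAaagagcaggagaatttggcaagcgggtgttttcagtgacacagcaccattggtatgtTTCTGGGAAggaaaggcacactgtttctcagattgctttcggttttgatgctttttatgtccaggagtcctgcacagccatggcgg

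Both strands of every listed promoter of 9 members were searched (*Gsdmd* has no entry). The shares given beside them are over 27025 promoters, the first listed for each gene. *Casp12* had TTCTGGGAA at positions -102 and -36 from its start, on both strands since the motif is its own reverse complement, and 8.47% of the 27025 promoters hold a gamma-activated site. *Casp4* had NF-kB matches that begin at -93 and -92, which overlap, and at -39. The motif is held by 8.18% of the 27025 promoters. *Nlrp3* had one at -186 of a start that is not its first listed, a match that this share would not count. *Il1a* had the AP-1 site TGACTCA (searched as TGANTCA) at -12, which 7.93% of promoters hold. The core GAAANNGAA of the interferon-stimulated response element was in none of the 9 and in 8.57% of the 27025. These matches describe letters in a window and are not a measurement of binding.

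Levels are given as CPM, the gene's count relative to the library total after TMM scaling, and 3 counts, the least taken as detected, correspond to 0.361 to 2.12 CPM. All 10 transcripts were found in naive microglia. Per kilobase of transcript, a scale that allows genes to be compared, *Pycard* was highest at a mean level of 185 ± 40.9 CPM per kb (SD, n = 19), although its GENCODE model has a long last exon that the authors' gene models may lack. *Casp1* (110 ± 22.7), *Il1a* (104 ± 29.0), *Casp8* (102 ± 11) and *Il18* (85.5 ± 22.4) followed on the same scale, and these neighbours in the order did not differ beyond their spread. *Gsdmd* was at 47.2 ± 12.0 and *Casp4* at 28.1 ± 9.74 CPM per kb. The lowest levels were those of *Il1b* (7.53 ± 5.81), *Nlrp3* (4.94 ± 2.46) and *Casp12* (1.65 ± 1.47), of which each overlaps the others within their SD.

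**Figure D1:**
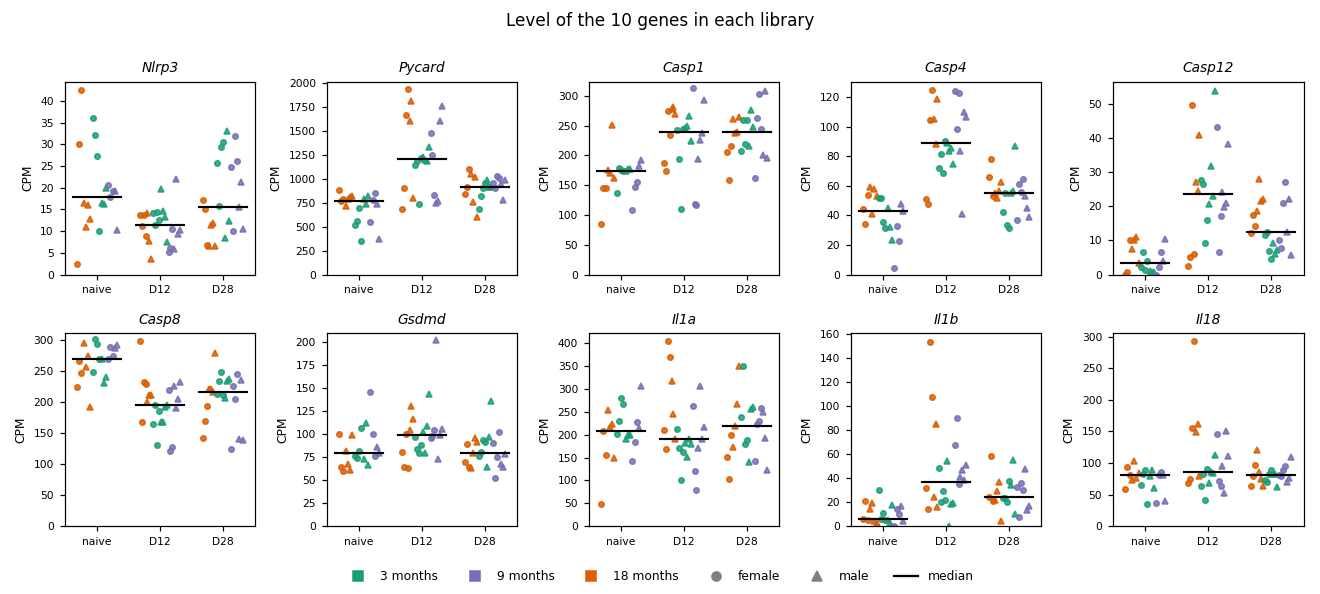
Level of each gene in CPM (vertical axes, linear, each from 0) in every library, by day (horizontal axis); points are single retinas, coloured by age and shaped by sex, and bars are medians. *Casp12*, *Il1b*, *Casp4* and *Pycard* have higher medians at D12 than in naive microglia, *Casp8* and *Nlrp3* lower ones, and the median of *Il1a* is 207 CPM naive, 190 at D12 and 219 at D28.

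At D12 the transcripts of the adaptor, of 3 caspases and of both inflammasome-dependent cytokines rose, and those of the sensor *Nlrp3* and of *Casp8* fell. Tested over all 13584 genes and as a mean over the 6 strata of age and sex (edgeR, Benjamini-Hochberg adjusted p under 0.05), 6 of the 10 members were higher (*Pycard*, *Casp1*, *Casp4*, *Casp12*, *Il1b*, *Il18*) and 2 lower (*Nlrp3*, *Casp8*), while 20.2% of all genes tested were higher and 15.8% lower. The median log2 fold change was 0.49 over the members and 0.02 over all genes. *Gsdmd* and *Il1a* did not pass. With the stricter question whether a change exceeds 1 on the log2 scale, *Casp12* and *Il1b* were called, beside 7.52% of all genes.

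Taking the sensor first, *Nlrp3* ranged from 2.47 to 42.4 CPM in naive libraries with a median of 18.0, and from 3.71 to 21.9 with a median of 11.4 at D12. The ranges overlap widely, with 20 of 22 D12 libraries below the naive median. Its mean log2 fold change was -0.81 ± 0.21 (SE; adjusted p = 0.00158), and its stratum mean was lower at D12 in 6 of 6 strata. At D28 the level was back among the naive values, from 6.55 to 33.0 CPM with a median of 15.6; the difference from naive was -0.20 ± 0.21 on the log2 scale (adjusted p = 0.638; 95% interval -0.62 to 0.23).

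*Pycard*, the adaptor, was the most abundant member and went the other way. It lay between 353 and 881 CPM in naive libraries (median 766) and between 684.5 and 1941 at D12 (median 1211), where 16 of 22 libraries exceeded the highest naive one. The log2 fold change was 0.84 ± 0.12 (adjusted p = 8.95e-08), with a higher mean in 6 of 6 strata. At D28 it ranged from 598 to 1106 CPM with a median of 920, above the highest naive library in 15 of 21, and the log2 fold change was 0.40 ± 0.12 (adjusted p = 0.0155). Without 9-month male naive replicate 2 the D28 value was 0.35 with an adjusted p of 0.0655, and with uncorrected counts and no batch term (0.47) it did not pass either.

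Of the 3 neighbouring caspases, *Casp1*, the common effector, had the smallest fold change at D12. It had naive levels of 85.2 to 251.2 CPM (median 173), D12 levels of 110 to 313 (median 240) and D28 levels of 158 to 308 (median 240). The log2 fold change was 0.47 ± 0.11 at D12 (adjusted p = 0.000305) and 0.53 ± 0.11 at D28 (adjusted p = 0.000215). In 4 of 6 strata every D12 library lay above every naive one, and in 5 of 6 every D28 library did. Of all genes, 4.16% were separated upwards in at least 4 strata at D12 and 1.2% in at least 5 at D28.

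*Casp4*, which encodes the lipopolysaccharide-sensing caspase-11, ranged from 4.65 to 59.0 CPM in naive libraries (median 42.8) and from 41.2 to 124.5 at D12 (median 88.8). Of 22 D12 libraries, 19 were above the highest naive one. This is a log2 fold change of 1.25 ± 0.14 (adjusted p = 1.79e-10). D28 values ran from 31.4 to 87.1 CPM with a median of 55.1, so that they overlapped both other days, and the log2 fold change was 0.51 ± 0.14 against naive (adjusted p = 0.00797).

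*Casp12*, an inflammatory caspase gene whose product is linked to endoplasmic reticulum stress, had the largest fold change of the members. It was close to the limit of detection in naive microglia, from 0 to 10.9 CPM with a median of 3.49 and no count in 2 of 19 libraries. At D12 it reached 2.62 to 53.8 CPM (median 23.7), above the highest naive library in 17 of 22. Its increase was 2.73 ± 0.34 on the log2 scale, or 6.61-fold (adjusted p = 3.32e-09). All 21 D28 libraries were above the naive median, between 4.63 and 28.0 CPM (median 12.4), with a log2 fold change of 1.85 ± 0.34 (adjusted p = 3.85e-05). Every D12 library exceeded every naive one in 5 of 6 strata, and every D28 library did in 4 of 6, as 2.01% and 2.55% of all genes did in at least that many.

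*Casp8*, the death-receptor protease, declined at both times. Naive levels were 191 to 302 CPM (median 269), D12 levels 120 to 298.5 (median 195) and D28 levels 124 to 279 (median 216). At D12, 9 of 22 libraries were below the lowest naive one, and 21 were below the naive median. The log2 fold change was -0.47 ± 0.09 at D12 (adjusted p = 1.59e-05) and -0.39 ± 0.09 at D28 (adjusted p = 0.000975), and the mean was lower in 6 of 6 strata at both days. *Gsdmd*, the pore-forming substrate, had a median of 78.8 CPM in naive libraries, 98.3 at D12 and 78.7 at D28. Its log2 differences from naive were 0.25 ± 0.11 at D12 (adjusted p = 0.0771) and -0.05 ± 0.11 at D28 (adjusted p = 0.870). The D12 value passed the threshold when any one of 5 libraries was left out, and its lowest adjusted p was then 0.0245.

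The cytokine genes differed among themselves. *Il1b* was low and variable in naive microglia, between 0 and 30.3 CPM with a median of 6.32, and lay between 0 and 153 CPM (median 36.6) at D12. Of 22 D12 libraries, 21 were above the naive median and 13 above the highest naive library; 3-month male D12 replicate 2 had no count. The log2 fold change was 2.12 ± 0.38 at D12 (adjusted p = 6.52e-06) and 1.49 ± 0.37 at D28 (adjusted p = 0.00249). D28 levels were 4.03 to 58.6 CPM with a median of 24.6, and 20 of 21 exceeded the naive median.

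*Il1a*, its neighbour on chromosome 2, had overlapping ranges on all days: 48.6 to 307 CPM naive, 78.8 to 405 at D12 and 103.5 to 350 at D28. Its log2 differences from naive were 0.01 ± 0.14 at D12 (95% interval -0.28 to 0.30) and 0.04 ± 0.15 at D28 (95% interval -0.25 to 0.34). *Il18*, the other caspase-1 substrate, ranged from 35.4 to 103 CPM naive (median 80.8) and from 41.1 to 293 at D12 (median 85.4). The medians hardly differ, and 8 of 22 D12 libraries lay above the naive range. The log2 fold change was 0.50 ± 0.15 at D12 (adjusted p = 0.00631), and with uncorrected counts and no batch term it no longer passed. At D28, with levels of 62.3 to 121 CPM, it was 0.18 ± 0.15 (adjusted p = 0.516).

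**Figure D2:**
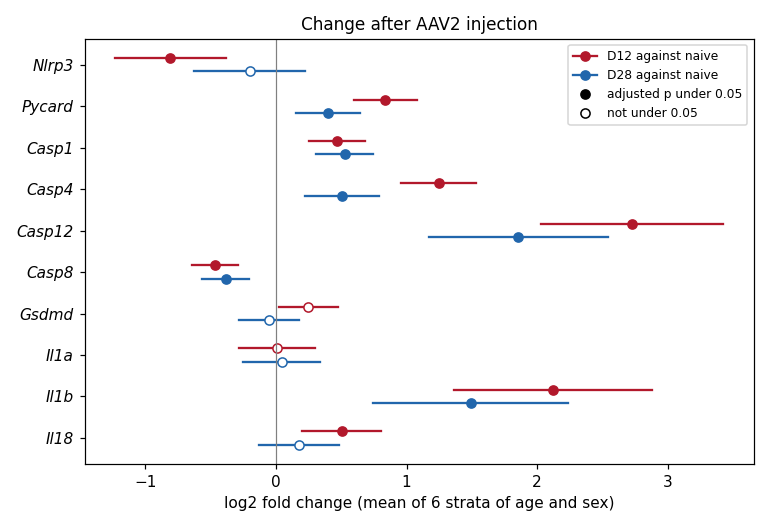
Log2 fold change of each gene (horizontal axis) at D12 and D28 against naive, as the mean of the 6 strata of age and sex; lines are 95% intervals and filled points have an adjusted p under 0.05. The intervals of *Casp12* and *Il1b* lie farthest above 0 and those of *Nlrp3* (D12 only) and *Casp8* below it.

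At D28 the count against naive was 5 higher (*Pycard*, *Casp1*, *Casp4*, *Casp12*, *Il1b*) and 1 lower (*Casp8*) of 10, beside 9% and 6.52% of all genes. No member passed against a log2 fold change of 1, where 2.29% of all genes did. Both comparisons share the naive libraries, so D28 was also set against D12 directly. In that comparison 4 members were lower at D28 (*Pycard*, *Casp4*, *Casp12*, *Gsdmd*) and 1 was higher (*Nlrp3*), beside 10.3% of all genes lower and 7.92% higher, and none exceeded a log2 fold change of 1 (1.68% of genes did).

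*Casp4* had the smallest adjusted p of these, with a log2 difference of -0.74 ± 0.13 (adjusted p = 3.7e-05), followed by *Pycard* with -0.44 ± 0.12 (adjusted p = 0.00424). *Casp12* differed by -0.87 ± 0.30 (adjusted p = 0.0300); without 18-month female D12 replicate 3 the value was -0.58 (adjusted p = 0.144), and the call was also lost without 9-month female D12 replicate 1 (-0.72) or 9-month male D28 replicate 4 (-0.81). *Nlrp3* was higher at D28 by 0.61 ± 0.20 (adjusted p = 0.0287). Its call was lost without 3-month male D28 replicate 2 (0.48, adjusted p = 0.0999), 9-month male D28 replicate 3 (0.56), 18-month female D28 replicate 2 (0.57) or 18-month male D12 replicate 3 (0.56). *Gsdmd* differed by -0.30 ± 0.11 (adjusted p = 0.0416), a call lost with any one of 19 libraries left out, at an adjusted p of up to 0.0952. For *Il1b* the difference was -0.63 ± 0.34 (adjusted p = 0.203), and for *Casp1* 0.06 ± 0.10 with a 95% interval of -0.15 to 0.26.

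Collection took place on 2 days, each with libraries of every group. In the counts adjusted for collection day, the mean change over the strata had the same direction on each for the members called. The mean D12 difference over the strata, in log2 CPM, was 3.29 on the first day and 2.61 on the second for *Casp12*, and 2.23 and 2.60 for *Il1b*. For *Casp4* it was 1.31 and 1.38, for *Pycard* 0.74 and 1.02, and for *Casp1* 0.79 and 0.30. *Casp8* gave -0.43 and -0.46, *Il18* 0.49 and 0.64, and *Nlrp3* -0.32 and -0.93. Single strata went both ways for some members: *Nlrp3* was higher at D12 in 2 of 6 on the first day, and *Casp1* in 4 of 6 on the second. At D28 the values of the members called were 2.62 and 1.58 for *Casp12*, 2.30 and 1.57 for *Il1b*, 0.65 and 0.52 for *Casp4*, 0.57 and 0.47 for *Casp1*, 0.36 and 0.49 for *Pycard*, and -0.63 and -0.28 for *Casp8*.

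Within single strata, with 2 to 4 libraries a side, 5 members were called at D12 in at least one stratum. The share of all genes called at D12 was 7.36% in 3-month females, 7.21% in 3-month males, 11.2% in 9-month females, 4.6% in 9-month males, 3.49% in 18-month females and 8.91% in 18-month males. In 3-month females *Pycard* and *Casp12* were called higher and *Casp8* lower. *Casp4* and *Casp12* were called in 3-month males, *Pycard* alone in 9-month males, *Pycard* and *Casp4* in 18-month males, and no member in 18-month females. In that last stratum 8 of 10 members had an unadjusted p under 0.05, beside 2558 of 13584 genes. The 9-month females had *Casp4*, *Casp12* and *Il1b* called higher and *Casp8* lower.

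The values of single retinas in 3-month males and 9-month females show what these calls rest on. *Casp12* in 3-month males was 1.18, 0.651 and 0.852 CPM in the naive libraries, which are 5, 3 and 2 counts, and 20.5, 31.8, 23.1 and 53.8 CPM at D12. There is no overlap, as for 11.4% of all genes in this stratum, and the log2 fold change of 5.13 ± 0.97 (adjusted p = 0.000230) rests on a naive level near the limit of detection. *Casp4* in 9-month females was 4.65, 32.7 and 22.9 CPM naive against 124, 98.3 and 123 at D12, with a log2 fold change of 2.52 ± 0.37 (adjusted p = 3.24e-06). *Il1b* in the same animals was 0, 13.9 and 9.89 CPM naive and 67.9, 90.3 and 35.1 at D12, with a log2 fold change of 3.02 ± 0.96 (adjusted p = 0.0300). Naive and D12 libraries did not overlap for either gene in these females, where 14.2% of all genes were higher at D12 in this way.

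At D12 the calls of *Casp12* in 3-month males and *Casp4* in 9-month females held with each of their libraries left out, and each of the other calls within a stratum was lost without at least 1 of its libraries. At D28 *Casp4* in 9-month females was the only member called (1.44 ± 0.35, adjusted p = 0.0153; 0.99 at an adjusted p of 0.249 without naive replicate 1). The share of all genes called at D28 was 0.788%, 0.537%, 1.52%, 0.147%, 1.4% and 1.25% in 3-month females and males, 9-month females and males, and 18-month females and males.

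**Figure D3:**
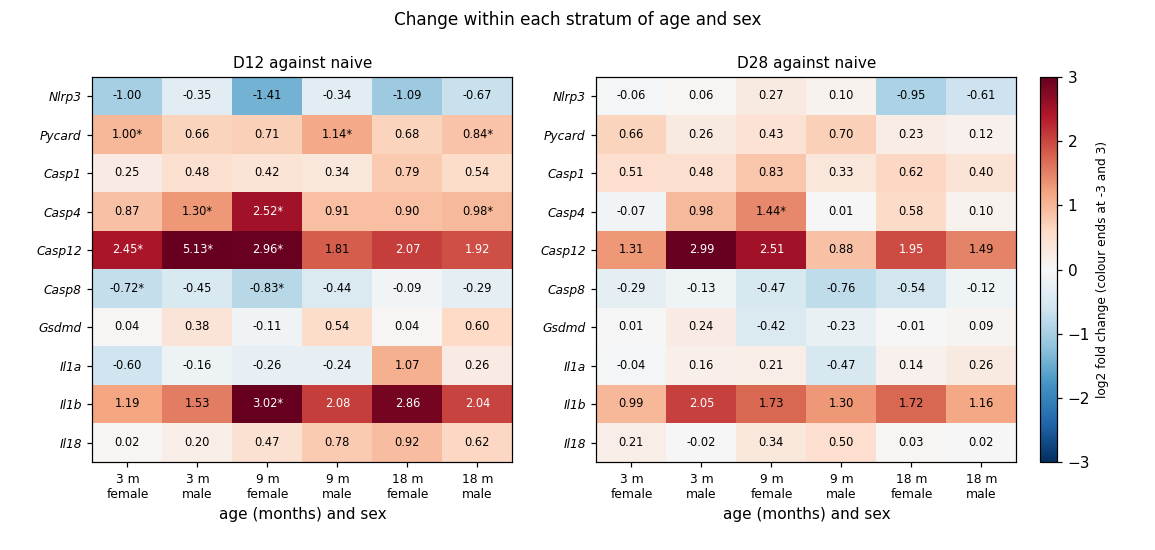
Log2 fold change of each gene (rows) against naive within each stratum of age and sex (columns) at D12 and D28; colour ends at -3 and 3, and an asterisk marks an adjusted p under 0.05. *Casp12* and *Il1b* are above 0 in all strata at both days, and *Casp8* is below 0 in all.

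Between 18 and 3 months, as a mean over both sexes, no member passed an adjusted p of 0.1 in naive microglia (edgeR), where 0.11% of all genes did. An unadjusted p under 0.05 was found there for 1 of 10 members and 1010 of 13584 genes. At D28 no member passed either (0.0442% of genes), with 2 members and 631 genes under 0.05 unadjusted. *Casp12* at D28 ranged from 18.6 to 28.0 CPM in 18-month males and from 5.95 to 9.18 in 3-month males. In females these ranges were 12.3 to 17.4 and 4.63 to 12.4. The paper lists *Casp12* among few genes that differed with age in males at D28 (DESeq2, adjusted p under 0.1). In males alone the edgeR model called 0 of 10 members at D28, beside 1 of 13584 genes. An unadjusted p under 0.05 was found there for 1 member and 421 genes. At D12 *Il18* alone was called, beside 1.97% of genes. Its D12 levels in 3-month mice were 62.9, 82.7, 41.1 and 89.8 CPM in females and 68.2, 85.9, 84.9 and 113 in males. At 18 months they were 68.2, 74.4, 156 and 293 CPM in females and 150, 161 and 78.8 in males. The age groups overlap, since 3 of the 7 older libraries lie within the younger range. Monocyte markers differed between these libraries too: they summed to 10.49, 16.1, 217.8 and 1109 CPM in the older females, in the same order, of which the first and second are the libraries that stand apart, to 262 to 434 in the older males and to 12.3 to 437 in 3-month mice. Their part in the age difference was not tested. The log2 difference was 0.83 ± 0.24 (adjusted p = 0.0837), 1.10 ± 0.34 in females and 0.56 ± 0.36 in males. The call was lost when any one of 10 libraries was left out, at an adjusted p of up to 0.378, and in 4 of 11 other settings.

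*Il1a* pointed the same way at D12, with a log2 difference of 0.68 ± 0.24 between 18 and 3 months that did not pass (adjusted p = 0.152). The corresponding test of whether the D12 change itself differs with age gave 1.04 ± 0.34 for *Il1a* (adjusted p = 0.195) and -1.79 ± 0.78 for *Casp12* (adjusted p = 0.367). No member was called there (0.155% of genes), and 2 of 10 members and 1497 of 13584 genes had an unadjusted p under 0.05. The age test of the D28 change called no member either (0% of genes), with 0 members and 601 genes under 0.05 unadjusted. DESeq2 called *Il1a* alone of the members in the age test at D12, where it called 221 genes and edgeR 21. Between 9 and 3 months at D12, 1.65% of genes and no member passed, and 0 members had an unadjusted p under 0.05, beside 1721 of 13584 genes.

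The test of whether the change differs with sex, taken as a mean over all ages, called 0 of 10 members at D12 and 0 at D28, as with DESeq2. A sex difference at a single age was not tested. In edgeR 0% of all genes passed at either day. An unadjusted p under 0.05 was found for 1 member and 791 of 13584 genes at D12, and for no member and 563 genes at D28. That member was *Gsdmd*, with a male minus female difference in log2 fold change of 0.51 ± 0.22 (adjusted p = 0.822). The 95% intervals at D12 were wide for *Il1b* (-1.90 to 0.96) and *Casp12* (-0.84 to 1.76), so for these genes a sex difference of that size would not have been seen.

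The pathway around the 10 genes was followed with 40 further genes: sensors and their partners, cell death effectors, IL-1 family ligands, receptors and inhibitors, and signalling proteins. Of these, 37 were tested (*Nlrp6*, *Nlrp10* and *Nlrp12* were not). At D12, 12 were higher and 3 lower than naive, beside 20.2% of all genes higher and 15.8% lower, with a median log2 fold change of 0.29 (0.02 over all genes), also with *Mefv*, at 0 in every naive library, set to its bound. The IL-1 family ligands, receptors and inhibitors had 4 higher (*Il18bp*, *Il1rn*, *Sigirr*, *Il18r1*) and 1 lower (*Il1rl1*) of 10. Among the death effectors 4 of 9 were higher (*Mlkl*, *Ripk3*, *Ripk1*, *Cflar*) and none lower, and among 12 sensors and partners tested 4 were higher (*Mefv*, *Naip5*, *Nlrp1b*, *Naip2*) and 1 lower (*Txnip*). Of 6 signalling genes, *Irak2* was lower. At D28, 6 of 37 were higher and 4 lower, beside 9% and 6.52% of all genes, with a median of 0.16.

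The inhibitors of both cytokines stood out by adjusted p. *Il18bp*, the secreted protein that binds and neutralises IL-18, was at 2.11 to 27.6 CPM in naive libraries (median 8.28) and 36.4 to 1037 at D12 (median 439). All 22 D12 libraries were above the highest naive one, a pattern shown by 0.162% of the genes tested. Its log2 fold change was 5.60 ± 0.38 at D12 (adjusted p = 3.17e-18) and 3.19 ± 0.33 at D28 (adjusted p = 4.02e-11), when levels were 12.7 to 259 CPM. *Il1rn*, the antagonist of the IL-1 receptor, had no count in 13 of 19 naive libraries and reached 6.71 CPM in one. It was at 1.57 to 80.7 CPM at D12 (median 19.4) and 0.226 to 30.6 at D28 (median 5.25), with log2 fold changes of 6.85 ± 0.61 (adjusted p = 1.62e-13) and 5.0 ± 0.60 (adjusted p = 5.71e-09).

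*Il1rl1*, the receptor of IL-33, fell by 4.23 ± 0.53 on the log2 scale at D12 (adjusted p = 4.66e-09) from a naive median of 5.17 CPM, with no count in 12 of 22 D12 libraries. *Txnip*, a thioredoxin-binding protein that can bind NLRP3, had a naive median of 233 CPM, 133 at D12 and 160 at D28, and 17 libraries on each of the injected days were below the lowest naive one. Its log2 fold changes were -0.90 ± 0.12 (adjusted p = 1.04e-08) and -0.68 ± 0.12 (adjusted p = 2.07e-05). *Naip5*, a sensor of bacterial flagellin, had medians of 60.0, 79.9 and 75.5 CPM, and rose by 0.53 ± 0.13 on the log2 scale at D28 (adjusted p = 0.00175).

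**Figure D4:**
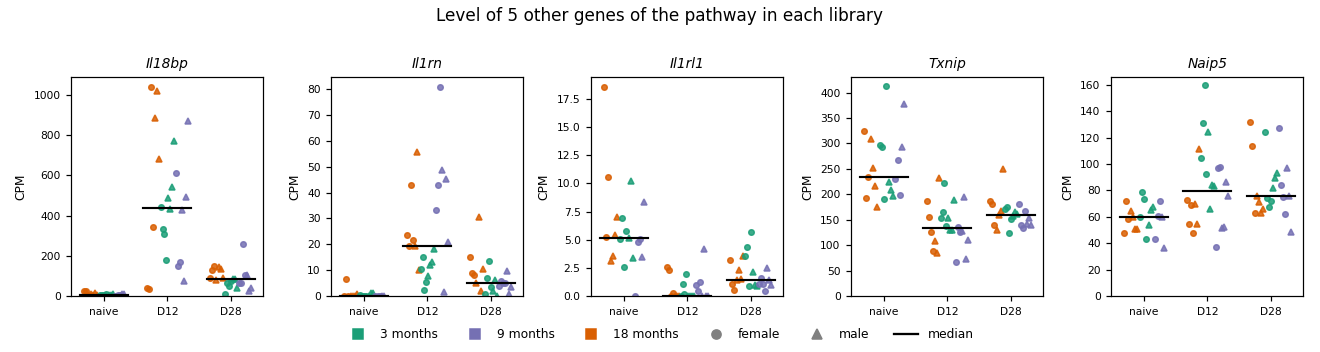
Level in CPM (vertical axes, linear, each from 0) of the 5 other pathway genes with the smallest p, in every library by day; points are single retinas coloured by age and shaped by sex, and bars are medians. *Il18bp* is higher in all 22 D12 libraries than in any naive one.

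The sorted cells held the defining transcripts of microglia, and markers of other cells moved with the day. The summed level of 10 microglial markers, all detected on every day, was 31040 to 53880 CPM in naive libraries, 8790 to 36520 at D12 and 17320 to 46380 at D28. In bulk samples fewer cells of a type and less RNA per cell cannot be told apart. The 5 T cell markers summed to 0 to 128 CPM naive (median 1.14), 1.57 to 355 at D12 (median 114) and 14.8 to 162 at D28 (median 67.2). The 6 monocyte markers summed to 0.235 to 111 CPM naive (median 14.0), 10.49 to 1109 at D12 (median 133) and 6.95 to 75.1 at D28 (median 21.1), with *Chil3* at 0 in all naive and D28 libraries. The 8 neutrophil markers summed to medians of 168, 172 and 167 CPM on the 3 days, and 7 of the 8 had a median of at most 3 counts, with *Ly6g* at 0 in all naive and D12 libraries. The 4 markers of border macrophages had a median sum of 158.5 CPM naive, 5.34 at D12 and 5.71 at D28. Photoreceptor markers summed to medians of 1830, 783 and 1475 CPM and those of Mueller glia to 213, 161 and 165, while B cell and endothelial markers stayed at or under 9.31 CPM in every library. Early response genes, which rise when tissue is handled, had median sums of 303, 293 and 288 CPM. The part of these cells in the values above was not tested.

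The cells had been sorted as high in tdTomato. The D12 library with the lowest summed T cell and monocyte markers, 18-month female replicate 1 (1.57 and 10.49 CPM), had the highest sum of microglial markers at D12 (36520 CPM) and the least *Casp12* (2.62 CPM) and *Pycard* (684.5 CPM) of the D12 libraries, both below the naive medians. Its *Casp4*, at 50.9 CPM, was within the naive range, and its *Il1b*, at 32 CPM, was above the highest naive value. Replicate 2 of that group had 10.4 CPM of T cell and 16.1 of monocyte markers, with *Casp12* at 5.18 CPM and *Il1b* at 14.2, within the naive ranges, and *Pycard* at 910 CPM, above the highest naive value. By comparison, replicates 3 and 4 had 355 and 210 CPM of T cell markers and 49.6 and 5.99 CPM of *Casp12*. Their *Pycard* was at 1666 and 1941 CPM, their *Casp4* at 104.8 and 124.5 and their *Il1b* at 153.1 and 107.8. For these 3 genes both replicates were above the highest naive value. How far the members go with the markers of other cells was not tested. With both replicates 1 and 2 left out, the same 8 members were called at D12 and the same 6 at D28. Replicate 2 of the 9-month male D12 group, which stands apart from the other D12 libraries, and the 18-month male library labelled both D28 and D12 were also left out together. Then 9 members were called at D12, *Gsdmd* included (0.28 ± 0.11, adjusted p = 0.0416), and 6 at D28.

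As a description of co-variation, the genes most like each member were ranked by Pearson's r over the 18 group means of log2 CPM, which share libraries and the contrast of days. *Casp4* was most like *Trim25* (r = 0.96), *Birc3* (0.93) and *Mospd2* (0.93), and *Casp12* most like *Atxn7l1* (0.94), *Vcam1* (0.93) and *Bcl3* (0.92). For *Pycard* they were *Txn1*, *Cd52* and *Sri* (each 0.96), for *Casp1* *Cd86* (0.93), *Ppt1* (0.92) and *Ctss* (0.91), and for *Casp8* *Lilra5* (0.93), *Cyth2* (0.93) and *Scamp2* (0.92). *Il1b* was most like *Igfbp6* (0.92), *Spint1* (0.91) and *Rai14* (0.89), *Il18* like *Klrc1* (0.91), *Eif1ad* (0.91) and *Apol7e* (0.90), and *Il1a* like *Zwint* (0.91), *Rsl1* (0.90) and *Il13ra1* (0.88). The highest values were lower for *Gsdmd* (*Bnip2*, 0.86) and *Nlrp3* (*Creb3l2*, 0.83). Between members the highest r was 0.80, for *Casp4* and *Casp12*, and the lowest was -0.71, for *Nlrp3* and *Casp4*.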

How the data were processed

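RNA of 600 sorted microglia per retina was amplified with SMART-Seq v4, a kit that does not mark strand, and sequenced as single 75-base reads. Per the labels and the study's methods, the authors demultiplexed with bcl2fastq 2.20, aligned to mm10 with STAR 2.7.8a, counted reads per gene with featureCounts on refGene models, and adjusted the counts for collection day with ComBat-seq in R 4.2.2. The deposited values used are these adjusted whole-number counts per gene; the unadjusted counts served for alternatives and for 2 libraries not in the main fit. One of these is the library labelled 18-month female D28 replicate 1, left out by the rule that defines the gene set, and the other is that labelled 9-month male D28 replicate 1, which the adjusted table used here does not hold. The sex-linked transcripts of these 2 libraries, and of none of the other 62, go against the label.

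Libraries were grouped by age, sex and day from their titles. Genes were filtered with edgeR's filterByExpr, libraries scaled by TMM, and 1 quasi-likelihood model with 18 groups was fitted to 62 libraries (edgeR 4.0.16, R 4.3.3). Day effects are means over the 6 strata. Age tests are means over both sexes unless a sex is named, and sex tests are means over all ages. Benjamini-Hochberg adjustment ran over 13584 genes, with thresholds of 0.05 for days and 0.1 for ages and interactions. All p-values of single genes come from edgeR unless DESeq2 (1.42.0) is named. CPM is the count relative to the TMM-scaled library total; a level of 3 counts was the floor, which covers counting error only. Level differences within a collection day are differences of mean log2 CPM with a prior count of 2. The fit was tested on simulated data.

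The 10 genes, the 40 pathway genes and the marker lists were chosen with earlier results of these data known. All 10 members are described; other pathway genes named with values are the 4 with the smallest p at D12 and at D28, and the 3 most alike genes per member may be named. Likeness is Pearson's r over 18 group means. Gene positions are from GENCODE vM21 (GRCm38), promoters from RefSeq (GRCm38.p6). Alternatives covered the scaling, the filter, the tool, the batch adjustment, the replicate block, the samples in the fit, a test against a log2 fold change of 1, and leaving out each library.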

Additional observations from a re-analysis of the deposited data

Results flagged for a closer look

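Single libraries far from the rest of their group were found in 5 of 90 combinations of gene and group with at least 4 libraries, by Dixon's test; chance gives about 1 in 20. *Pycard* was at 738 CPM in 3-month female D12 replicate 3, against 1146 to 1220 in the other libraries of its group. *Casp1* was at 137.5 CPM in 3-month female naive replicate 1 (others 173 to 179) and at 251.2 in 18-month male naive replicate 3 (others 162 to 176). *Casp12* was at 49.6 CPM in 18-month female D12 replicate 3, where the others were at 2.62 to 5.99, and *Casp8* was at 279 CPM in 18-month male D28 replicate 4, which also carries a D12 label (others 216 to 221).

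The sex-linked transcripts (*Xist* and 4 Y-linked genes) of the 2 libraries outside the comparisons go against their labels, and those of the other 62 do not, so that the group of these 2 libraries is in doubt. Both, labelled D28, were above every naive library for several members, in CPM of the uncorrected counts. In the library labelled 9-month male D28 replicate 1 these were *Casp1* (229 CPM; naive 84.5 to 216), *Casp4* (63.5; naive 2.37 to 62.8), *Casp12* (32.7; naive 0 to 13.1) and *Il1b* (34.1; naive 0 to 27.7). In the library labelled 18-month female D28 replicate 1 they were *Pycard* (1139 CPM; naive 469.5 to 994.5), *Casp1* (308), *Casp4* (144), *Casp12* (41.0), *Il1a* (462; naive 83.3 to 374), *Il1b* (85.3) and *Il18* (123; naive 27.7 to 114). All of these were also above the highest D28 library of the comparisons. The margin was wide for *Casp4* (D28 at most 74.6) and small for *Pycard* (1135), *Casp12* (40.2) and *Il1a* (461.2). The values named for the 9-month male library lay within the D28 range. The share of all genes above every naive library was not counted. In the edgeR model, no member was called in a test of a difference in response between ages or sexes. DESeq2 called *Il1a* in that of age at D12, among 221 genes, where edgeR called 21.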

How the results depend on the processing

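The number of members called was 8 at D12 and 6 at D28 with DESeq2, with its size factors in edgeR and with the replicate block; against a log2 fold change of 1 it was 2 at D12, 0 at D28 and 0 for D28 against D12. That last comparison had 5 calls, and 3 with uncorrected counts and no batch term, where *Pycard* lost its call in this comparison and at D28. Over all genes D28 against D12 had 2474 calls, and 2074 in that setting. Leaving out 1 library gave 8 to 9 calls at D12, 5 to 6 at D28 and 3 to 5 for D28 against D12, with 3 without 18-month female D12 replicate 3, 18-month female D28 replicate 2, 3-month male D28 replicate 2 or 9-month male D28 replicate 3. Of the 19 member calls between days, 15 held in every other setting apart from that threshold, the choices made after seeing the data and single libraries.

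For 18 against 3 months at D12 (1 call) there were 2 calls with DESeq2, 3 without the filter, 0 with uncorrected counts (with or without collection day), 0 in a fit of the groups compared only, 0 with the library labelled 18-month female D28 replicate 1 put back, 2 with the library of 2 day labels at D12, and 0 to 2 with 1 library left out. The number of all genes called moved too. It was 268 in the main fit, 530 with DESeq2, 580 without the filter and 564 with the library of 2 day labels at D12. It was 137 with uncorrected counts and collection day, 52 without collection day, 154 in the fit of the groups compared and 182 with the 18-month female library put back. Without the filter, 1 member was called between 18 and 3 months in naive mice (*Casp12*) and 1 between 9 and 3 months at D12 (*Il1b*), and a fit of the groups compared only called 1 between 18 and 3 months at D28 (*Casp12*). Of all genes, 167, 612 and 41 were called in these settings, where the main fit called 15, 224 and 6. The age test of the D12 change had 1 call with DESeq2, 2 without the filter, and 0 to 1 with 1 library left out (1 without 18-month female naive replicate 2). Of all genes it called 21 in the main fit, 221 with DESeq2 and 396 without the filter. Other counts were 0 with each library left out.

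Leaving out 18-month female D12 replicates 1 and 2, a choice made after seeing the data, as was the pair with 9-month male D12 replicate 2, gave 2 calls for 18 against 3 months at D12 and 1 (*Il1a*) for the age test. Over all genes 781 and 264 were then called, where the main fit called 268 and 21. Differences of *Il1a* near 0 changed sign: at D12 to -0.021 without the pair that stands apart, and for D28 against D12 to -0.091 (uncorrected counts, no batch term), -0.003 (replicate block), -0.024 (library of 2 day labels at D12) and -0.039 (18-month female pair left out). With 1 library left out *Il1a* ranged from -0.093 to 0.096 at D12, -0.023 to 0.127 at D28 and -0.021 to 0.137 between them, and *Gsdmd* at D28 from -0.104 to 0.008. The cause was not tested.

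Replicate numbers did not pair the samples (mean correlation of deviations -0.00967 over 464 same-number pairs, 0.00342 otherwise), and the replicate block gave 5 calls for D28 against D12, 1 for 18 against 3 months at D12 and 0 in the other age and sex tests. Of the 30 most alike genes by Pearson's r, 9 were also among the 3 highest for their member by Spearman's rho. Depth limits *Casp12*, *Il1b* and *Nlrp3* most, whose naive levels are the lowest.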
